A study of Homo sapiens with 32 samples.

Results

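The nuclear tRNA genes for glutamate, glutamine, glycine and lysine were taken by their RefSeq symbols, which begin TRE-, TRQ-, TRG- and TRK-, and a gene was kept when at least 1 of its positions reached 30 reads in at least 1 of the 32 libraries. This left 81 of the 91 such genes in the RefSeq table, among 390 covered nuclear tRNA genes of 443 in all. The 81 genes comprised 15 for glutamate, 18 for glutamine, 27 for glycine and 21 for lysine. Reads that lie within genes of identical sequence cannot be told apart, although the deposited counts differed up to 15.2-fold between such copies. Counts of identical genes were summed, which gave 39 distinct sequences. A sequence is named by its symbol without the copy number, so TRK-CTT2 stands for all 5 covered gene copies of that lysine tRNA sequence with anticodon CTT. The 39 sequences fell into 9 anticodons, 2 each for glutamate, glutamine and lysine and 3 for glycine.

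The libraries were ac4C-seq libraries of total RNA from Hep3B, a hepatocellular carcinoma line. Every library came from cells that had received 100 nM dTAGV1 for 24 h, the compound that degrades FKBP-tagged NAT10, the RNA cytidine acetyltransferase. There were 8 genotypes with 2 replicates each. Wildtype cells were the untagged parental line, FKBP cells carried the degron tag on NAT10 and nothing else, and NAT10(-) cells carried the tag plus a control plasmid. NAT10-WT cells carried the tag plus unmutated NAT10, K290A and E389L cells a copy with a helicase domain substitution, and H537A and G641E cells a copy with an acetyltransferase domain substitution. The transduced cells had been selected with Blasticidin. Each RNA was split into a mock fraction and a fraction reduced with NaCNBH3, which makes reverse transcriptase read acetylated cytosine as T. Wildtype and NAT10-WT are called NAT10-competent below and the other 6 genotypes NAT10-deficient. The labels call the replicate number a batch and do not say whether the 2 replicates were separate cultures, so p-values measure the spread between these libraries, which may be technical.

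The depths over the 39 sequences summed to between 4086479 and 29391558 base calls per library, apart from K290A NaCNBH3 replicate 2, which held 1271518. That library covered 1623 of the 2813 positions at 30 reads and the other libraries up to 2772. Coverage of all bases in all 16 mock libraries was reached by 23 sequences, whereas 15 sequences had no base with 30 reads in all 32 libraries. The hepatocyte markers fitted the cell line. All 7 had covered exonic positions in some library and 4 in every library, with 2033 or more covered positions of ALB, the albumin mRNA, in each. None of the 3 leukocyte, 2 endothelial and 3 fibroblast markers had any.

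A tRNA carries many modified bases, laid down by dedicated enzymes that recognise the folded molecule. The TRMT6-TRMT61A complex methylates adenosine 58 in the T loop, TRMT10A methylates guanosine 9 between the acceptor and D stems, and TRMT1 dimethylates guanosine 26. These groups sit on the pairing face of the base, so a reverse transcriptase that passes them inserts wrong bases or stops. Bulky groups that tune codon reading sit in the anticodon loop. ALKBH8 and CTU1-CTU2 act on the wobble uridine 34 of the glutamate, glutamine and lysine tRNAs that have one, and the YRDC and OSGEP pathway and CDKAL1 act on adenosine 37 of lysine tRNAs. NAT10, with its partner THUMPD1, acetylates cytidine 12 of serine and leucine tRNAs within the bases CCG. Mismatch below means the percentage of reads at a position that did not carry the reference base. It is a readout of base modification and of other sequences mapped to the gene alike, and it is not a stoichiometry.

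The sequences on which the results turn are printed from the GRCh38 reference, 5′ to 3′ in DNA letters, with positions 9, 26, 34, 37, 57 and 58 in capitals in that order. The 2 glutamate sequences shown are almost identical but differ strongly in mismatch at position 58. They are TRE-TTC1 (copy 1-1, chr2:130337128-130337199, minus strand) and TRE-TTC2 (copy 2-1, chr13:44917927-44917998, minus strand).
TRE-TTC1: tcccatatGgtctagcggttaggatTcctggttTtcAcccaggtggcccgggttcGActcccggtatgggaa
TRE-TTC2: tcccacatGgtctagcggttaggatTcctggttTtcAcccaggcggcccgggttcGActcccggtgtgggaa

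The glutamine sequences are shown because they carried the highest mismatch at position 9 and because close relatives differ in base 57. They are TRQ-CTG1 (copy 1-4, chr15:65869062-65869133, minus strand), TRQ-CTG3 (copy 3-2, chr1:148032790-148032861, plus strand), TRQ-TTG1 (copy 1-1, chr17:49192528-49192599, plus strand) and TRQ-TTG2 (copy 2-1, chr6:28589379-28589450, plus strand).
TRQ-CTG1: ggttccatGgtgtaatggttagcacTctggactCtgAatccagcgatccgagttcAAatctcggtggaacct
TRQ-CTG3: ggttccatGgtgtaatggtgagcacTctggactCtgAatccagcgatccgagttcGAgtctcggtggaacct
TRQ-TTG1: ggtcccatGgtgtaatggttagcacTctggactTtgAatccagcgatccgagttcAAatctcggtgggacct
TRQ-TTG2: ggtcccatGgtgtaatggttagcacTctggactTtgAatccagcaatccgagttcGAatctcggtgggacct

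The glycine sequences are the leading one of each anticodon, meaning the one with the most reads, and TRG-CCC6, which had the lowest mismatch at position 58. They are TRG-CCC2 (copy 2-2, chr16:636736-636806, minus strand), TRG-CCC6 (copy 6-1, chr1:121016845-121016915, minus strand), TRG-GCC2 (copy 2-6, chr17:8125746-8125816, plus strand) and TRG-TCC2 (copy 2-1, chr1:146037061-146037132, plus strand).
TRG-CCC2: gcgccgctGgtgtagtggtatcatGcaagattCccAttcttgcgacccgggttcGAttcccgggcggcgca
TRG-CCC6: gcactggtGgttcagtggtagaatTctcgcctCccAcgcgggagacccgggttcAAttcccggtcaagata
TRG-GCC2: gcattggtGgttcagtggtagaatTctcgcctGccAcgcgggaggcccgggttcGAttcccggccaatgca
TRG-TCC2: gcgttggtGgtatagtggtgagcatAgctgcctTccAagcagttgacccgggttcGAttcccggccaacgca

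The lysine sequences are the leading ones of both anticodons and TRK-CTT1, which had the highest mismatch at position 58. They are TRK-CTT1 (copy 1-1, chr14:58239895-58239967, minus strand), TRK-CTT2 (copy 2-1, chr1:146039401-146039473, plus strand) and TRK-TTT3 (copy 3-5, chr17:8119155-8119227, plus strand).
TRK-CTT1: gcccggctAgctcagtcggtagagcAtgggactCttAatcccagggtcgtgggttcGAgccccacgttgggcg
TRK-CTT2: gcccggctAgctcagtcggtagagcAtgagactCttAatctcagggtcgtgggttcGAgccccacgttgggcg
TRK-TTT3: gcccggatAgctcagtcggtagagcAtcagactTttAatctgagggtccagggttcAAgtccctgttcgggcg

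Position 58 was A in every sequence and was read with mismatches in all 29 sequences that had 30 reads there in all 16 mock libraries, at means between 1.45% and 92.7%. Mismatch was high in most glutamine tRNAs and in TRK-CTT1, TRK-CTT2 and TRK-CTT4, and it was spread widely among glutamate and glycine tRNAs. The mean passed 50% in 21 of the 29 sequences (72.4%), against 117 of 135 other nuclear tRNA sequences with A58 (86.7%). The median of the means was 76.1% in the former and 81.4% in the latter. No test was made over sequences, because many of them are near-identical.

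Among lysine tRNAs, TRK-CTT1 ranged from 90.6% through a median of 92.8% to 94.6% over the 16 mock libraries, TRK-CTT2 from 83.9% through 87.9% to 91.6%, and TRK-CTT4 from 81.1% through 87.5% to 92.1%. The ranges of TRK-CTT2 and TRK-CTT4 lay within each other's spread, and both overlapped that of TRK-CTT1 only at its lower end. TRK-CTT3, whose reads mostly carried the base of TRK-CTT2 at position 33, was lower, from 29.3% through 37.5% to 69.8%. Of the sequences with anticodon TTT, TRK-TTT3 lay between 53.8% and 77.7% around a median of 63.0%, below TRK-CTT1, TRK-CTT2 and TRK-CTT4 but with a higher median than TRK-CTT3. TRK-TTT4 and TRK-TTT5, with medians of 67.8% and 67.6%, could not be told from TRK-TTT3 beyond this spread. Summed over each anticodon, Lys-CTT averaged 89.4% ± 2.11 and Lys-TTT 65.3% ± 6.37 (SD, 16 mock libraries). Lys-CTT was higher in 16 of 16 libraries and the ranges did not overlap. The difference of 24.1 points had an adjusted p of 5.79e-05 by an exact two-sided permutation test that flips the sign of the difference within each library, with Benjamini-Hochberg adjustment over the 169 such comparisons among all nuclear tRNAs. The smallest raw p that this test can give is 3.05e-05. Across those 169 comparisons 119 were called (70.4%), so a called difference between anticodons was the usual outcome, and 11 of the 22 comparisons within these 4 amino acids were called. At position 58, 4 of 6 were called.

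The glutamine tRNAs had similar medians apart from TRQ-CTG6. TRQ-CTG1 ranged from 85.4% through 88.0% to 89.7%, TRQ-TTG1 from 83.7% through 86.3% to 87.5%, and TRQ-TTG2 from 86.0% through 89.5% to 93.8%. TRQ-CTG2 and TRQ-CTG3 spread more widely, from 77.2% through 84.0% to 89.4% and from 72.6% through 85.8% to 88.7%. TRQ-CTG6 had the lowest median, from 63.7% through 75.7% to 86.6%, but its range overlapped those of TRQ-CTG2 and TRQ-CTG3. Summed by anticodon, Gln-CTG averaged 87.1% ± 1.44 and Gln-TTG 86.6% ± 1.52 (SD, 16 libraries). The difference of 0.442 points was not called (exact permutation, adjusted p = 0.123). It was 1.08 points and called in the NaCNBH3 libraries (higher in 10 of 16, exact permutation, adjusted p = 0.0224). With only the gene copy with the most reads of each sequence it was called the other way, at -2.52 points (higher in 0 of 16 mock libraries, exact permutation, adjusted p = 5.73e-05).

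Glycine tRNAs with anticodon GCC had the highest mismatch when reads were summed by anticodon. TRG-GCC1, from 79.2% through 86.9% to 89.98%, and TRG-GCC2, from 80.6% through 84.5% to 87.9%, overlapped almost entirely. TRG-TCC2 ranged from 61.5% through 71.7% to 84.7%, and TRG-TCC1, which differs from it by the single change G20T counted from the first base of the gene, from 29.9% through 41.2% to 65.1%. TRG-TCC3 differs from TRG-TCC2 by G20A and ranged from 70.6% through 79.6% to 87.7%. The levels of these TCC sequences thus ran in the order TCC3, TCC2, TCC1, and the ranges of neighbours in that order overlapped. Gly-GCC averaged 85.3% ± 2.44, Gly-CCC 66.5% ± 6.14 and Gly-TCC 66.3% ± 7.48 (SD, 16 libraries). Gly-GCC was higher than Gly-CCC and than Gly-TCC in 16 of 16 libraries each, by 18.8 and 18.9 points (exact permutation, adjusted p = 5.79e-05 for both). The 0.131 points between Gly-CCC and Gly-TCC were not called (exact permutation, adjusted p = 0.978), and their sign turned without K290A replicate 2.

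The CCC sequences themselves ranged most. TRG-CCC1 had a mean of 82.9%, TRG-CCC2 75.3%, TRG-CCC5 36.3% and TRG-CCC6 1.45%. TRG-CCC6 stayed between 0.449% and 3.47% at depths of 173 to 1261 reads. It was the lowest of all 29 sequences, and its range did not overlap with that of any other.

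Glutamate tRNAs also differed widely between close relatives. TRE-TTC2 ranged from 4.09% through 5.23% to 8.16% and TRE-TTC1 from 43.9% through 49.2% to 53.5%, with no overlap. Relative to TRE-TTC1, TRE-TTC2 carries T6C, T44C and A67G, numbered by tRNA position, and is otherwise identical, including the T loop printed above. TRE-CTC1, the most deeply read sequence of all, ranged from 23.3% through 25.9% to 33.7%. TRE-TTC4 ranged from 55.5% through 62.5% to 72.6%. TRE-TTC3 differs from TRE-TTC4 by T66C and ranged from 65.5% through 76.0% to 85.4%. TRE-CTC2 ranged from 25.8% through 31.8% to 39.5%, but nearly all of its reads matched TRE-CTC1 where they differ. Summed by anticodon, Glu-TTC averaged 35.2% ± 4.09 and Glu-CTC 26.9% ± 3.25 (SD, 16 libraries), and Glu-CTC was higher in 2 of 16 libraries (difference -8.34 points, exact permutation, adjusted p = 0.000607).

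**Figure D1:**
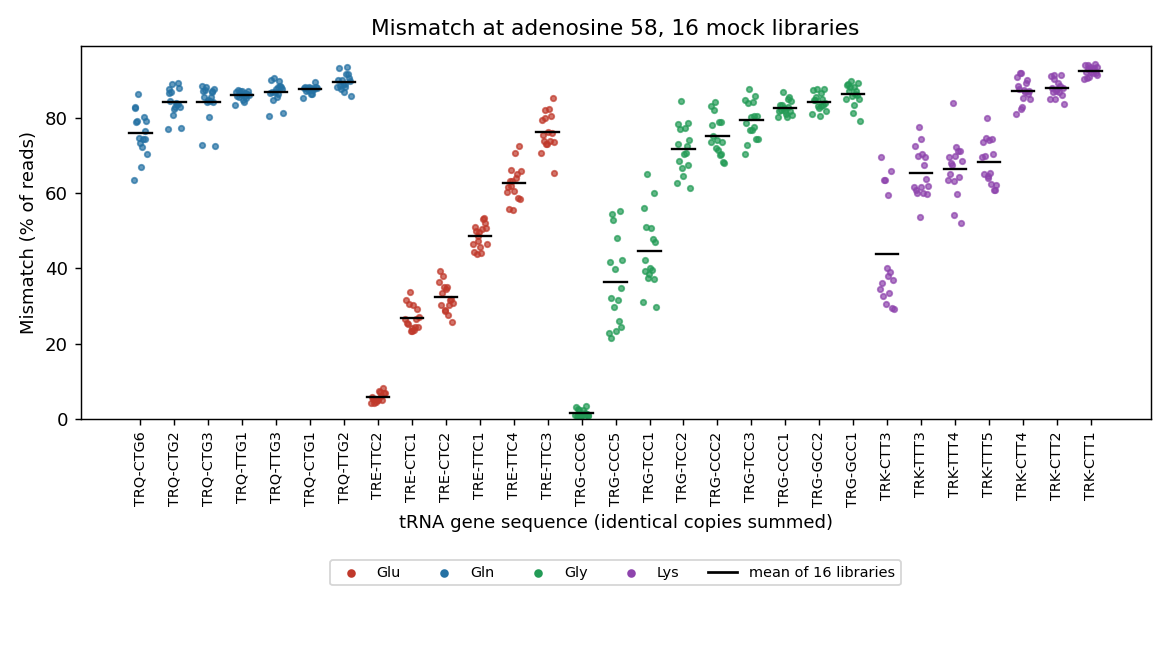
Each point is 1 of the 16 mock libraries of 8 genotypes, placed by its mismatch at A58 (percent of reads, y axis), for the 29 tRNA sequences with 30 reads there in all of them (x axis, grouped by amino acid), and each bar is the mean. Means run from 1.45% in TRG-CCC6 to 92.7% in TRK-CTT1, and the points of TRK-CTT3 fall into a low and a high set.

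The base inserted at A58 differed with the base before it. This was seen while the data were being described and is given without a test, because sequences that share base 57 are mostly relatives. Among the mismatching reads at A58, the share read as G was between 3.72% and 7.41% (median 5.42%) in the 10 sequences with A at position 57, where 90.6% to 95.0% of the mismatching reads were T. In the 18 sequences with G at position 57 the share read as G was between 25.99% and 77.0% (median 57.9%), and the sets did not overlap. The same held inside each amino acid that had both bases. TRQ-CTG1 and TRQ-CTG3, at similar mismatch, had G shares of 4.90% and 43.4%, and the changes of TRQ-CTG3 from TRQ-CTG1 are T20G in the gene and A57G and A59G by tRNA position. TRQ-TTG1 and TRQ-TTG2, which differ by G45A and A57G, had G shares of 5.94% and 57.2%.

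For glycine, TRG-CCC1 with A57 had a G share of 6.52% and TRG-GCC2 with G57 one of 58.9%. For lysine, TRK-CTT2 with G57 had 27.9% and TRK-TTT3 with A57 had 6.69%, but these also differ at position 60, C in TRK-CTT2 and T in TRK-TTT3. The lysine sequences with G57 all had C60 and the lowest G shares among the sequences with G57, 25.99% to 28.6%. The others with G57 had T60 and G shares of 43.4% or more. Glutamate sequences all had G57, and those with C at position 59, TRE-TTC1 and TRE-TTC2, had the highest G shares, 76.7% and 77.0%. The others had T at position 59 and G shares of 55.5% to 62.5%. The share did not follow the level, since TRE-TTC2 at 5.71% mismatch and TRE-TTC1 at 48.6% had almost the same value. Among other nuclear tRNAs, the 31 sequences with A57 had a median G share of 4.91% (range 2.22% to 64.9%) and the 102 with G57 one of 59.8% (range 23.4% to 93.9%), so there the sets did overlap.

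**Figure D2:**
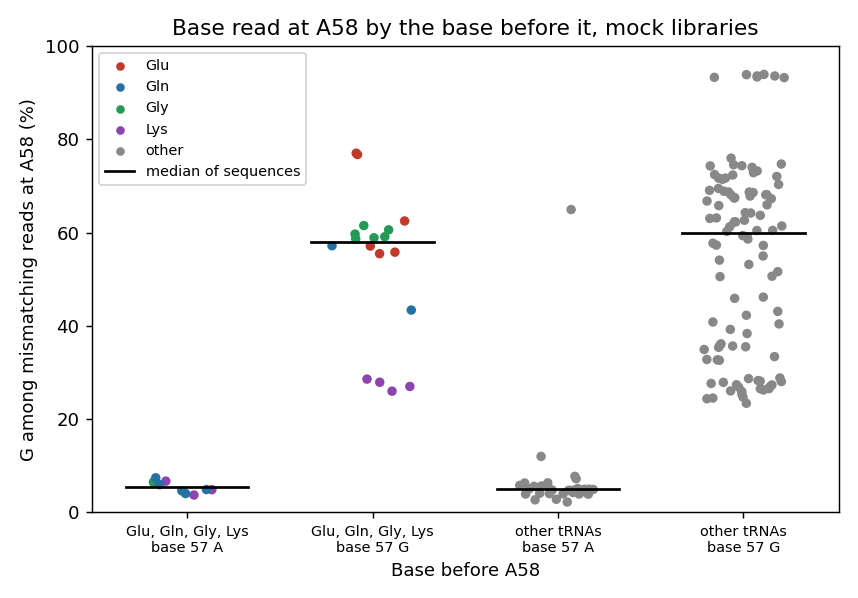
Each point is 1 tRNA sequence, placed by the share of its mismatching reads at A58 that read G (percent, median over the mock libraries, y axis), split by the base at position 57 and by whether it is a Glu, Gln, Gly or Lys tRNA (x axis, coloured by amino acid). Bars are medians over sequences. The 10 Glu, Gln, Gly and Lys sequences with A57 lie at or below 7.41% and the 18 with G57 at or above 25.99%.

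NaCNBH3 lowered the G share at A58 in some of these sequences by a few points. Of 125 nuclear tRNA sequences covered in all 32 libraries with enough mismatching reads, 20 (16%) had a lower G share in the NaCNBH3 fraction by the exact sign-flip permutation test over the 16 pairs, adjusted over the 125. Among the 15 Glu, Gly, Gln and Lys sequences with G57, 6 were lower and 0 higher. Of the 77 other nuclear tRNA sequences with G57, 14 were lower and 5 higher. The G share of TRG-CCC2 fell by 2.93 ± 2.85 points (SD of 16 pairs, lower in 15 pairs, adjusted p = 0.00436), that of TRE-CTC1 by 2.16 ± 1.81 (15 pairs, adjusted p = 0.00763) and that of TRG-GCC2 by 1.96 ± 1.58 (14 pairs, adjusted p = 0.00572). The G share also fell in TRG-TCC3, TRE-TTC1 and TRG-GCC1 by 2.19, 2.14 and 1.34 points. None of the 7 Glu, Gly, Gln and Lys sequences with A57 was lower, and 1, TRQ-CTG2, was higher by 0.814 points (exact permutation, adjusted p = 0.0462). Of the 26 other sequences with A57, 0 were lower and 0 higher. The total mismatch at A58 of TRE-CTC1 meanwhile changed by 0.935 ± 2.39 points and was higher in 13 of 16 pairs. Its pair K290A replicate 2, with the least-read library, went from 29.1% to 22.1%. The total mismatch of TRG-GCC2 changed by 0.199 ± 1.45 points and was higher in 10 of 16 pairs. Both means were smaller than the SD of the pairs.

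Position 9 separated glutamine tRNAs and a subset of glutamate tRNAs from the rest. Guanosine 9 was mismatched in TRQ-CTG1 in 18.2% to 25.3% of reads around a median of 22.04%, the highest of all. TRQ-TTG3 ranged from 14.1% through 18.4% to 24.2%, TRQ-TTG1 from 7.67% through 11.8% to 14.2%, and TRQ-CTG6 from 2.76% through 7.12% to 10.5%. TRE-TTC1 ranged from 7.10% through 10.6% to 14.3% and TRE-TTC2 from 9.74% through 11.8% to 14.8%. In TRE-CTC1 the same base stayed between 0.323% and 0.674% and in TRE-TTC4 it was at most 2.08% in any library.

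The glutamate sequences with low mismatch at G9 therefore included both anticodons. TRE-TTC3 lay between the sets with a mean of 2.56%. Of the glycine sequences, TRG-TCC3 had a mean of 1.34% and the others at most 0.449%. The lysine tRNAs have A at position 9, a base that TRMT10A does not methylate, and their means were at most 0.0345%. Mismatch above 1% was found in 10 of 22 sequences with G9 (45.5%), against 26 of 57 other nuclear tRNA sequences with G9 (45.6%), where the highest mean was 28.3%.

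By anticodon, Gln-CTG averaged 19.8% ± 2.31 and Gln-TTG 15.5% ± 2.22, and Gln-CTG was higher in 16 of 16 mock libraries. Glu-TTC averaged 8.19% ± 1.82 and Glu-CTC 0.513% ± 0.115, with no overlap and Glu-TTC higher in every library. Gly-TCC, at 0.530% ± 0.168, was above Gly-CCC at 0.122% ± 0.0807 and Gly-GCC at 0.117% ± 0.0429 in 16 of 16 libraries each. All 4 differences had an adjusted p of 5.79e-05 by the exact permutation test. Gly-CCC against Gly-GCC (adjusted p = 0.914) and Lys-CTT against Lys-TTT (adjusted p = 0.453) were not called by it.

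Reads fell off across position 9 in the same sequences. Reverse transcription runs from the 3′ end, so fewer reads at position 8 than at position 10 can mark cDNAs that ended in between. Only aligned depth was available, and where the reads ended was not tested. The ratio of the depth at position 8 to that at position 10 had a mock median of 0.195 in TRQ-CTG1 (range 0.140 to 0.237), 0.319 in TRQ-TTG1 and 0.313 in TRQ-CTG3. It was 0.398 in TRE-TTC2 and 0.510 in TRE-TTC1, against 0.721 in TRE-CTC1 and 0.846 in TRE-TTC4. The glycine sequences lay between 0.824 and 0.997 and the lysine sequences between 0.976 and 0.996. Mismatch at G9 was measured on the reads that cover the position. In most glutamine sequences the depth at position 8 was a minority of that at position 10.

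**Figure D3:**
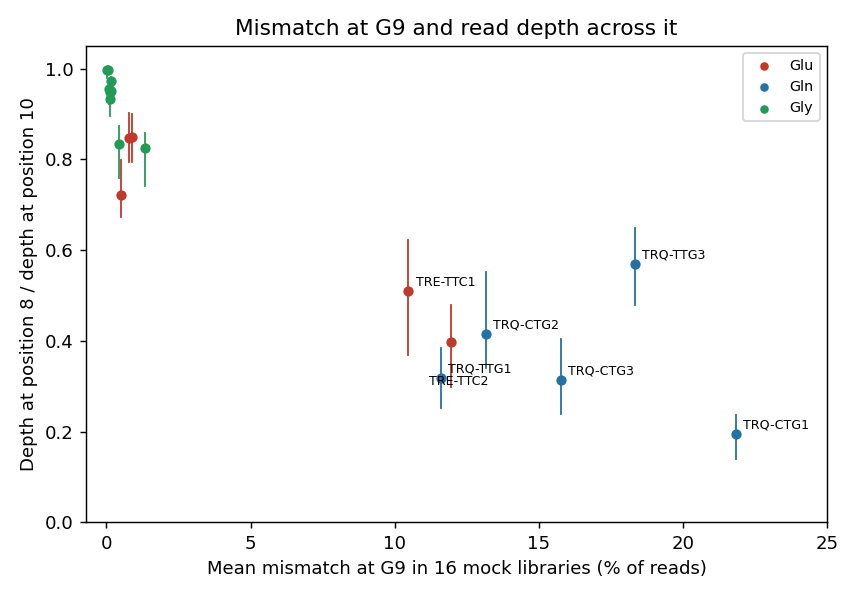
Each point is 1 glutamate, glutamine or glycine tRNA sequence with G at position 9, placed by its mean mismatch there over the 16 mock libraries (percent of reads, x axis) and by the median ratio of the depth at position 8 to the depth at position 10 (y axis), with lines from the lowest to the highest mock library. TRQ-CTG1 has the highest mismatch, 21.8%, and the lowest ratio, 0.195, and the glycine sequences sit at the top left.

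Positions 26, 34 and 37 were nearly silent. Position 26 is A or T in all of these tRNAs but TRG-CCC2, and no mean passed 0.0559% there. The one guanosine, in TRG-CCC2, had a mean of 0.107%. Guanosine 26 in the 82 other nuclear tRNA sequences that carry it had a median of 53.9%, and 78 of them passed 1%. At position 34 the 14 sequences with C and the 3 with G stayed at or below 0.271%, and 12 of the 13 with T, the thiolated and methoxycarbonylmethylated uridine of the Glu, Gln and Lys TTN anticodons among them, stayed at or below 0.830%. The exception was TRQ-TTG3, with 5.48% to 13.6% around a median of 9.26%. In it 99.5% of the mismatching reads carried C, the base of TRQ-CTG6, from which it differs by 3 bases.

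Adenosine 37 carries the threonylcarbamoyl group in lysine tRNAs, with a methylthio group added in those reading AAA. Its mean mismatch was 0.102% in TRK-CTT2 and 0.181% in TRK-TTT3, and at most 0.210% in any of the 30 sequences measured. Low mismatch was usual at A37, since the 84 other nuclear tRNA sequences with A37 had a median of 0.0564% and 12 of them passed 1%. The 43 with G37 had a median of 14.4%. Of the 10 comparisons between anticodons at positions 26 and 37, 3 were called by the exact permutation test, all with anticodon means at or below 0.0404%.

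Outside these positions, 53 further positions had a mean mock mismatch of 1% or more, of 93 in all among the 2097 positions covered in every mock library. At 26 of the 53, the base most often read among the mismatching reads was the one that another nuclear tRNA sequence, different at 6 or fewer bases, holds there. The clearest were TRK-CTT3, where 98.95% of reads at C33 were T as in TRK-CTT2, a difference of 1 base, and TRE-CTC2, where 98.5% of reads carried the base of TRE-CTC1 at one position. TRK-TTT5 read A at G50 in 24.97% as TRK-TTT3 does, and TRG-TCC2 was mismatched at base 20 in 16.9%, mostly to the A of TRG-TCC3. The reads assigned to TRK-CTT3 and TRE-CTC2 thus mostly carried the base of their abundant relatives where the sequences differ. Their mismatch at A58 was not that of the relatives. Its median was 37.5% in TRK-CTT3 and 87.9% in TRK-CTT2, and 31.8% in TRE-CTC2 and 25.9% in TRE-CTC1. The origin of these reads was not tested. None of the 29 positions 58 and none of the 10 positions 9 above 1% had such a relative.

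At the other 27 positions no close relative held the base. TRG-CCC5 led with T at C49 in 29.3%, followed by TRG-CCC6 with T at C32 in 21.5% and A at G30 in 21.4%. The rest lay between 1.08% and 2.11% and, apart from A31 of TRK-CTT2 at 1.23%, recurred by position. Guanosine 6 was mismatched, mostly to A, at 2.11% in TRK-CTT2, 1.70% in TRG-GCC1 and 1.27% in TRE-CTC1. Guanosine 10 reached 2.07% in TRK-CTT1, 2.04% in TRK-CTT4 and 1.94% in TRK-CTT2, and guanosine 46 reached 1.66% in TRK-CTT1 and 1.53% in TRK-TTT3. Cytidine 32 read as T in glutamine tRNAs, with a total mismatch of 1.60% in TRQ-TTG1 and 1.53% in TRQ-CTG1.

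Acetylated cytidine would appear as C read as T in NaCNBH3 libraries of NAT10-competent cells. Bases CCG at positions 11 to 13, on the strand of the tRNA, were present in 33 of 195 other nuclear tRNA sequences and in 0 of these 39. Cytidine 12 itself occurred in the 6 glutamate sequences, with T on either side. At C12 of TRE-CTC1 the share read as T ranged from 0.0120% through 0.0549% to 0.0876% in the mock libraries and from 0.0329% through 0.110% to 0.189% in the NaCNBH3 libraries, higher in 14 of 16 pairs. It was 0.0927% in TRE-TTC2 and 0.108% in TRE-TTC1 after NaCNBH3 (medians). For the 17 other sequences with CCG that were covered, a median over the NaCNBH3 libraries was taken per sequence. In competent cells it ran from 0% through 2.61% to 21.2% between sequences, and in deficient cells from 0% to 8.13%.

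The test of the study's methods, Fisher's exact test in each replicate with 1% as the lowest share and Benjamini-Hochberg adjustment over all positions, tested 7 to 12 cytosines of these tRNAs per genotype. It called 2 of 84 tests higher after NaCNBH3, against 5.77% of the tests over all covered positions (10.7% in NAT10-WT and 4.85% in H537A). Both were C42 of TRE-CTC1, in the anticodon stem. In NAT10-WT it rose from 1.15% and 0.873% in mock to 1.46% and 1.03% in NaCNBH3 in replicates 1 and 2, and in H537A from 0.838% and 1.03% to 1.07% and 1.35%. H537A is NAT10-deficient, and Wildtype, at 0.692% and 0.820% in mock and 1.08% and 0.791% in NaCNBH3, was not called. Neither call remained when only the gene copy with the most reads was used. With 0.1% as the lowest share, 105 of 516 tests were higher (20.3%), against 8.92% over all positions. They numbered 22 in NAT10(-) and 21 in NAT10-WT, where 10.3% and 12.8% of all positions were higher, and between 5 and 19 in the other genotypes.

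Over all 16 pairs, C read as T rose after NaCNBH3 at 35 of the 76 cytosines with a mean share of 0.1% or more (limma with the pair as a block, Benjamini-Hochberg over all cytosines), and none fell. Over all cytosines fitted 26.8% rose and 0.163% fell. With no lowest share 244 of 440 rose, against 42.9%. The levels were low throughout. C66 of TRG-GCC2 went from a mock median of 0.0693% (range 0.0434% to 0.129%) to 0.216% (0.108% to 0.387%), higher in 16 of 16 pairs, a log2 odds change of 1.51 ± 0.159 (SE, limma adjusted p = 1.93e-06). C67 of TRE-CTC1 went from 0.0651% (0.0408% to 0.123%) to 0.173% (0.105% to 0.295%), by 1.295 ± 0.157 (limma adjusted p = 8.93e-06). C25 of TRK-CTT2 went from 0.0818% (0.0583% to 0.164%) to 0.196% (0.122% to 0.370%), by 1.21 ± 0.164 (limma adjusted p = 2.40e-05). The other cytosines with the smallest p were C67 of TRG-GCC2, C32 and C11 of TRK-CTT2, C63 of TRE-TTC2, C25 of TRK-CTT1, C44 of TRE-TTC4 and C39 of TRE-CTC1, which rose by 0.88 to 1.97 on the log2 scale. They lie in acceptor, D, anticodon, variable and T parts of the molecule.

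No difference of the rise by NAT10 status was called. In the limma interaction of treatment with NAT10 competence, 0 of 76 cytosines were called and 3 had an unadjusted p under 0.05, where 0.15% of all cytosines were called higher and 0.00653% lower. Between genotypes in the NaCNBH3 libraries, each against NAT10-WT, limma called 0 of 1316 tests, with 36 at an unadjusted p under 0.05, against 0.0724% called over all cytosines. Fisher's exact test on the reads, in each replicate, called 2 of 81 higher, against 1.77% over all covered positions, and 3 lower, against 8.32%. C32 of TRG-CCC6 was higher in Wildtype and FKBP, and C42 of TRE-CTC1 was lower in Wildtype, FKBP and G641E.

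Summed over the 426 cytosines with little mismatch in mock libraries (under 0.5%), the share read as T was between 0.0498% and 0.0623% in mock and between 0.0862% and 0.153% in NaCNBH3 libraries. The share of A read as T, summed over 242 adenosines, was between 0.00407% and 0.00653% in mock and between 0.0345% and 0.0678% in NaCNBH3 libraries. Both were higher in 16 of 16 pairs and the ranges did not overlap. A read as G rose less, from a median of 0.0162% to 0.0240%, and T read as C stayed at 0.0188% and 0.0189%. NaCNBH3 replicate 1 libraries lay between 0.0862% and 0.1004% for C read as T and replicate 2 libraries between 0.116% and 0.153%, and these ranges did not overlap. NAT10(-) had 0.0958% and 0.122% and NAT10-WT 0.0949% and 0.126% in replicates 1 and 2. Other nuclear tRNAs showed the same pair of changes, from a median of 0.0412% to 0.0803% for C read as T and from 0.00506% to 0.0331% for A read as T.

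**Figure D4:**
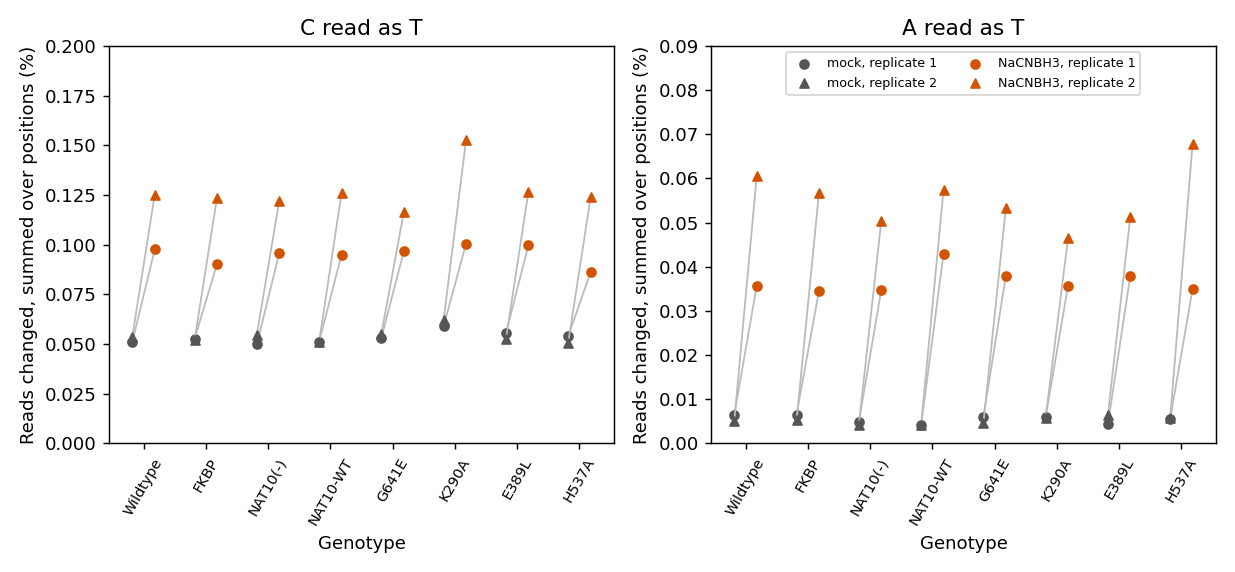
Points are single libraries by genotype (x axis), with mock and NaCNBH3 fractions of the same RNA joined by a line, and the y axes give the percent of reads changed, C read as T summed over 426 cytosines (left) and A read as T over 242 adenosines (right) of Glu, Gln, Gly and Lys tRNAs. Every NaCNBH3 point is above its mock partner in all 8 genotypes, and NaCNBH3 replicate 2 is above NaCNBH3 replicate 1 in both panels.

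Mismatch at A58 was compared between genotypes to see whether it moved with NAT10. TRK-CTT3, whose reads mostly carried the base of TRK-CTT2 at position 33, differed most. Its mock values were 69.8% and 59.7% in FKBP and 63.6% and 65.9% in G641E (replicates 1 and 2), against 32.5% and 39.0% in NAT10-WT, 34.6% and 38.04% in Wildtype and 36.1% and 33.4% in NAT10(-). In K290A the replicates gave 63.6% and 29.4%. E389L and H537A lay between 29.3% and 40.1%. Of the NAT10-deficient genotypes, some were thus high and some low. Depth was 91 to 561 reads in these libraries. The limma log2 odds against NAT10-WT were 1.73 ± 0.550 for FKBP and 1.72 ± 0.550 for G641E (SE), with adjusted p of 0.429 and 0.437. TRG-TCC1 ran a similar course, with mock values of 56.01% and 50.7% in FKBP, 51.1% and 60.02% in G641E and 39.3% and 47.9% in NAT10-WT, while K290A gave 65.1% and 37.3%.

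Over all A58 tests in mock libraries limma called 0 of 203 and over all mismatched positions of these tRNAs 0 of 651, with 35 at an unadjusted p under 0.05, against 0.272% called over all positions. The lowest adjusted p belonged to position 59 of TRQ-CTG1, read as G in 4.98% and 4.57% of Wildtype mock reads against 2.62% and 2.50% in NAT10-WT. Its log2 odds change was 0.93 ± 0.191 (limma adjusted p = 0.112, and 0.0403 with the replicate number as a block), and G is the base of TRQ-CTG2 there. A58 of TRG-GCC1 followed, at 81.4% and 79.2% in H537A and 87.4% in both NAT10-WT libraries (limma adjusted p = 0.187).

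Fisher's exact test in each replicate, which reads counting error alone, was run on the NaCNBH3 libraries. The limma counts above are of mock libraries, so the numbers of calls cannot be compared directly. In the NaCNBH3 libraries, 13 positions were higher and 2 lower in FKBP than in NAT10-WT, of 95 tested, against 4.07% and 3.52% over all positions, and 7 were higher and 3 lower in G641E, of 86 tested, against 2.98% and 3.29%. The FKBP calls included A58 of TRK-CTT3, TRK-TTT3, TRK-CTT2, TRG-TCC1, TRG-TCC2, TRG-TCC3, TRG-CCC2, TRG-GCC2, TRG-CCC6 and TRE-CTC1, all higher. In G641E A58 was higher in TRK-CTT3, TRK-TTT3, TRK-CTT2, TRG-TCC1, TRG-TCC2, TRG-CCC5 and TRE-CTC1 and lower in TRE-TTC1. NAT10(-), which carries the tag and a control plasmid, had 1 higher and 2 lower of 103, against 1.47% and 2.85%. K290A had 0 higher and 0 lower of 66, against 2.41% and 4.93%. A call needed both replicates, and K290A NaCNBH3 replicate 2 held only 1271518 base calls. In K290A 38 were higher and 6 lower in replicate 1 alone, and 5 and 12 in replicate 2 alone. In replicate 1 alone FKBP had 29 higher and 2 lower and G641E 22 and 4. The remaining genotypes had 5 to 18 higher there. The share called over all positions was not counted for a single replicate. These single-replicate counts are therefore not read as a result about these tRNAs. E389L had 1 higher and 1 lower of 99, against 1.15% and 2.92%, H537A 1 higher and 0 lower of 82, against 1.83% and 2.36%, and Wildtype 5 higher and 5 lower of 93, against 5.9% and 5.74%.

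**Figure D5:**
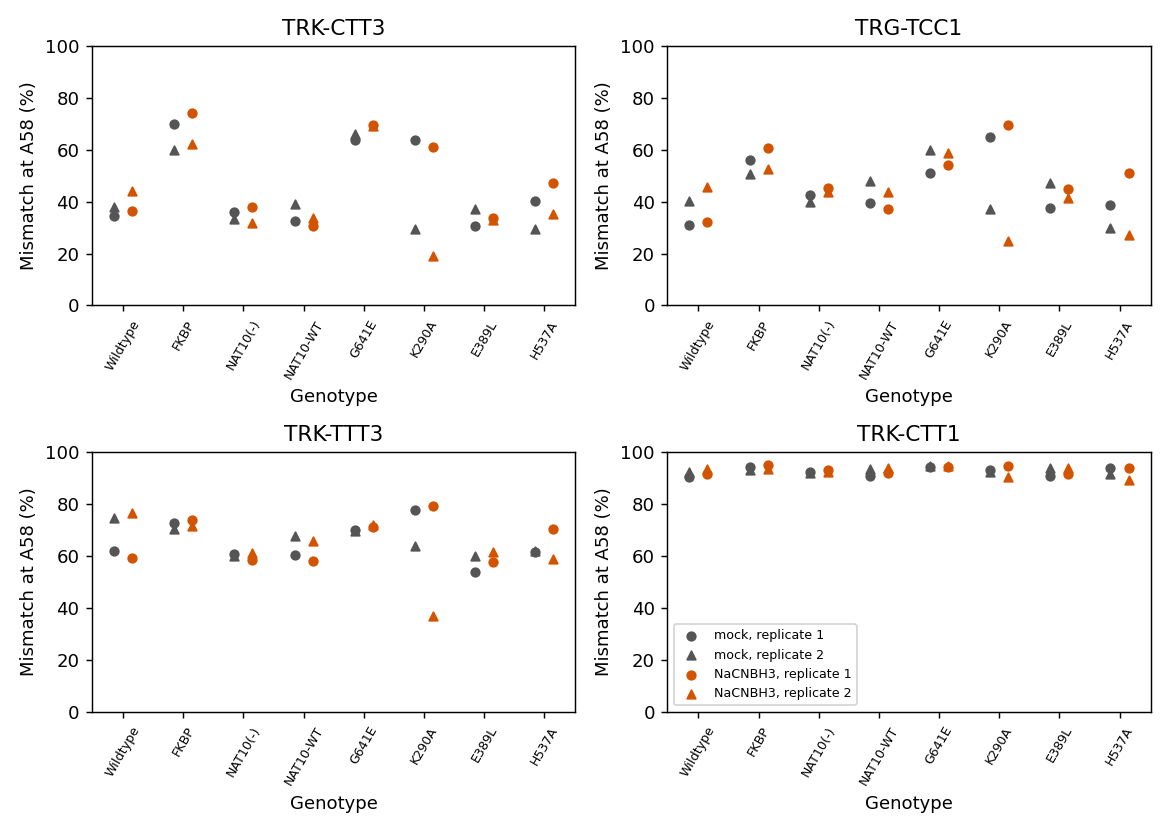
The panels show 4 tRNA sequences, and each point is 1 library by genotype (x axis) and by mismatch at A58 (percent of reads, y axis), grey for mock, orange for NaCNBH3, circles for replicate 1 and triangles for replicate 2. In TRK-CTT3 both FKBP and both G641E mock libraries lie at or above 59.7%, the K290A replicates lie apart, and TRK-CTT1 stays near 92.7% in every genotype.

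The mismatch itself was also compared between fractions. Over the 16 pairs limma called 1 of 72 positions with a mean mismatch of 1% or more, A71 of TRG-CCC6, higher by 0.61 ± 0.152 on the log2 odds scale (SE, adjusted p = 0.0144), against 8.65% called higher over all positions. None was called lower, where 1.53% of all positions were. With no lowest share, 346 of 1623 positions rose and 1 fell, against 16.9% and 0.177% over all positions. Of the enzymes named above, TRMT10A, TRMT10B, TRMT6, TRMT61A, ALKBH8, CTU1, CTU2, YRDC, OSGEP and THUMPD1 had no exonic position with 30 reads in any library, so their levels could not be read here. TRMT1, ELP3, URM1 and CDKAL1 had such a position in 1 to 7 libraries and NAT10 in 16.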

How the data were processed

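Per the labels and the study's methods, the authors trimmed reads with cutadapt 4.2, extracted a 10-nt UMI and aligned to GRCh38 with STAR 2.7.9a. They then removed duplicates with UMI-tools and counted bases with SAMtools 1.6 pileups. RNA was partly depleted of rRNA and reverse transcribed with Induro and 2-amino-dATP. The deposited values are raw counts of A, C, G and T for each position and strand with 30 or more reads. Depth levels off near 20029 to 20049 reads per position, so counts of abundant copies are samples.

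Counts of identical tRNA copies were summed. Copies differed up to 15.2-fold in assigned reads. Positions follow tRNA numbering (1 to 16 from the 5′ end, 22 to 46 from the anticodon, 48 to 73 from the 3′ end), otherwise bases are counted from the gene start. Fisher's exact test followed the study (30 reads, 5 mismatch reads, a share over 1%, adjusted p under 0.05 in both replicates). limma 3.58.1 in R 4.3.3 was fitted to log2 odds with 0.5 added to each count, with Benjamini-Hochberg adjustment over all positions in the deposited files. Exact permutation used SciPy 1.17.1 and NumPy 2.4.6, with all 65536 sign flips. Steps were tested on simulated data.

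Mock and NaCNBH3 fractions came from the same RNA and were paired. The labels name the replicate number as the batch. Deviations of same-numbered mock libraries correlated between -0.344 and 0.583 over 28 pairs of genotypes (median 0.130, 15 over 0.1). Named sequences are the leading one of each anticodon, the highest and lowest at each position, C12, and the positions with the smallest adjusted p or the highest mismatch. The members and lists were chosen with earlier results of these data known. PCR and UMI errors are not covered by counting error. Some items are not reported here.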

Additional observations from a re-analysis of the deposited data

How the results depend on the processing

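The number of C-to-T calls by Fisher's exact test (2) became 106, of which 1 lower, with a lowest share of 0.1%, 0 with the gene copy with the most reads, and 9 to 15 in a single replicate. For a single replicate the share over all positions was not counted. The limma count over pairs (35) became 244 with no lowest share, 31 to 42 with 1 library pair left out, and 33 with no replicate block. The genotype comparison of C read as T (0 by limma) gave 5 by Fisher's exact test and 0 with the replicate block. The genotype comparison of mismatch in mock libraries (0) gave 1 with the replicate block, position 59 of TRQ-CTG1 in Wildtype, and 0 to 1 with 1 library left out, the 1 being position 3 of TRQ-TTG3 in Wildtype without either G641E replicate. Mismatch after NaCNBH3 (1) became 2 with 5 added to each count, 347 with no lowest share, and 1 to 4 with 1 pair left out, with 4 without K290A replicate 2 and 2 without Wildtype replicate 1, G641E replicate 1 or H537A replicate 2. The interaction with NAT10 competence stayed at 0 under each alternative run. The 11 calls between anticodons of 22 all remained at 100 reads, without K290A replicate 2 and with the gene copy with the most reads, which added Gln at position 58 for 12. In NaCNBH3 libraries 10 of 21 were called, 9 of them among the 11. Glu at position 26 was lost (exact permutation, adjusted p = 0.373), Gln at position 9 was not compared and Gln at position 58 was gained.

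Some uncalled differences turned sign. With the gene copy with the most reads, Gln-CTG minus Gln-TTG at position 58 became -2.52 points (called), Gly-CCC minus Gly-GCC at position 9 became -0.00873 and Lys-CTT minus Lys-TTT at position 9 became 0.00280. Gly-CCC minus Gly-TCC at position 58 became -2.19 in NaCNBH3 libraries and -0.126 without K290A replicate 2. The causes were not tested. A library of 1271518 base calls limits K290A, and 15 sequences had no position with 30 reads in all 32 libraries.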

Other observations

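At A31 of TRK-CTT2, chosen after its values were seen, G was read at levels that did not follow genotype or fraction. In NAT10-WT the mock libraries had 2.05% and 5.59% and the NaCNBH3 libraries of the same RNA 0.0978% and 0.152% (replicates 1 and 2). In G641E the mock libraries had 1.90% and 2.56% and the NaCNBH3 libraries 3.43% and 0.138%. K290A replicate 1 had 3.08% in mock and 2.67% in NaCNBH3. E389L had 0.172% and 0.0715% in mock and 2.10% and 0.928% in NaCNBH3. Each value rests on 8170 or more reads in NAT10-WT, G641E and E389L. Libraries with more G at A31 also had fewer reads there than at A29. The NAT10-WT mock libraries had 27403 and 25085 reads at A29 but 19792 and 16199 at A31. In the NAT10-WT NaCNBH3 libraries these were 29160 and 33532 against 28635 and 32875. E389L NaCNBH3 replicate 1 had 31066 against 22806. The G share therefore moved with a loss of reads at that base, and its cause was not tested.

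In TRG-CCC6, C32 read as T and G30 read as A moved together across the libraries. In the mock libraries C32 read as T was 27.7% and 29.6% in Wildtype, 26.3% and 30.3% in FKBP and 20.5% and 19.8% in NAT10-WT, and G30 read as A was 27.6% and 29.6%, 26.5% and 30.1%, and 20.3% and 19.8% in the same libraries. Bases 30 and 32 lie within the same reads, and no nuclear tRNA sequence within 6 differences holds either base.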
